A study of Mus musculus with 2 samples.

Results

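Endothelial identity and junction genes were followed over the cell classes and endothelial cell (EC) groups of mouse long bones. The set had 10 members of the 28380 genes counted, chosen by name: Pecam1, Emcn, Plvap, Cdh5, Cldn5, Esam, Cav1, Ly6a, Ly6c1 and Mcam. All 10 were present in both deposited tables. The cells came from femur and tibia of C57BL/6 mice at postnatal day 30, with the epiphyses removed and blood cells depleted by lineage, CD45 and CD117 beads, and were profiled by single-cell RNA sequencing on the BD Rhapsody microwell system. There were 2 libraries. The Dach1OE library (Apj CreERT2 - Dach1OE +/f) came from mice in which tamoxifen, given in the first days after birth, activated a Cre recombinase driven by Aplnr (Apj), a gene of capillary ECs, and so released Dach1 from a transgene at Rosa26. The Control library (Dach1OE +/f) came from littermates with the transgene and no Cre, also given tamoxifen, and the R26-mT/mG Cre reporter was part of the cross. ECs keep the transgene silent unless they, or the cells they arose from, expressed Aplnr and recombined around the time of tamoxifen. The Dach1OE library thus mixes cells with and without an active transgene. Each library pooled 2 mice, male and female, and neither genotype has a replicate library. All intervals below are therefore 95% counting intervals, and no test of genotype was possible.

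ECs line blood vessels and hold to each other through adherens and tight junctions, while caveolae and diaphragms in their membrane control what crosses them. In bone, sinusoidal capillaries drain the marrow, type H capillaries of the growth region are defined by high Pecam1 and Emcn protein, arterial vessels bring blood in, and type R capillaries are post-arterial vessels described at remodelling bone. The members fall into these roles. Pecam1 encodes CD31, an adhesion protein at EC contacts, and Emcn encodes the sialomucin endomucin of capillary and venous ECs. Cdh5 encodes VE-cadherin of adherens junctions, Cldn5 a tight junction claudin and Esam an adhesion molecule of tight junctions. Plvap forms the diaphragms of caveolae and fenestrae, and Cav1 is the main coat protein of caveolae. Ly6a (Sca-1) and Ly6c1 are small surface proteins with a lipid anchor, and Mcam (CD146) is an adhesion receptor of ECs and pericytes. On GRCm38 with GENCODE vM21, all 10 are protein-coding genes. Pecam1 at chr11:106654217-106750628 (minus strand), Emcn at chr3:137341067-137432185 (plus strand) and Cdh5 at chr8:104101625-104144511 (plus strand) lie on 3 chromosomes. The others are Cldn5 at chr16:18776847-18778262 (plus strand), Esam at chr9:37528078-37538319 (plus strand), Plvap at chr8:71497765-71511752 (minus strand), Cav1 at chr6:17306335-17341452 (plus strand), Ly6a at chr15:74994877-74998031 (minus strand), Ly6c1 at chr15:75044018-75048830 (minus strand) and Mcam at chr9:44134469-44142727 (plus strand).

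The tables held 28720 Control and 32028 Dach1OE cells with 143986818 and 166999989 UMIs (unique molecular identifiers, each marking 1 captured molecule), and 1049 cell barcodes occurred in both libraries. Of 26466 and 29317 cells kept, 8913 Control (33.7%) and 9020 Dach1OE cells (30.8%) were gated as ECs by at least 4 of 12 EC markers, none of them a member. Their median depths were 2732 and 2701.5 UMIs. A total of 300 Control and 432 Dach1OE ECs carried exactly 4 markers, and 531 and 586 cells carried 3 and were left out. A further 1687 and 2147 cells that also carried more than 3 markers of another class were set aside as possible doublets. The median EC carried 8 of the EC markers and at most 1 marker of any other class in both libraries. Dach1, the overexpressed gene, stood at 5.07 CPM (UMIs of the gene per 1000000 UMIs of the same cells) in Control ECs and at 193 CPM in Dach1OE ECs, as the labels have it.

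ECs were divided by further marker lists without members into sinusoidal-like, type H-like, type R-like, arterial-like, proliferating and lymphatic-like cells. Sinusoidal-like cells were 61.7% of Control ECs and 31.5% of Dach1OE ECs, and arterial-like cells were 5.27% and 13.7%. Type H-like cells were 7.98% and 9.87%, and type R-like cells, whose gate asked for only 2 of 6 markers, were 2.21% and 1.64%. Cells that met no gate were 17.0% of Control ECs and 35.9% of Dach1OE ECs, with lower median depths of 1706 and 1964 UMIs. Some genes outside the gates were compared with the names. The sinusoidal receptor gene Gpr182 was at 600.5 CPM in sinusoidal-like and 45.3 CPM in arterial-like Control cells, and the arterial transcription factor gene Sox17 was at 75.6 and 433 CPM. The apelin receptor gene Aplnr, a capillary gene whose promoter drives the Cre used here, was at 1204 CPM in Control and 1159 CPM in Dach1OE type H-like cells. In type R-like cells Aplnr was at 299 (255 to 348) and 363 CPM (307 to 425), against 457 (447 to 467) and 401 CPM (388 to 413) in sinusoidal-like cells. In arterial-like cells Aplnr was at 181 (161 to 204) and 121 CPM (111 to 132), so its level in type R-like cells lay above the arterial-like and, in Control, below the sinusoidal-like level. Dach1 of Control was at 38.1 CPM (23.6 to 58.2) in type R-like cells on 21 UMIs and at 11.96 CPM (7.20 to 18.7) in arterial-like cells. Flt4, the gene of a receptor of lymphatic and sinusoidal ECs, was at 147 CPM (117 to 182) in type R-like and 864 CPM (851 to 877) in sinusoidal-like cells of Control. Unlike the other genes here, Flt4 is a marker of the sinusoidal-like gate, so this contrast was partly set by the gate. Efnb2, the ephrin-B2 gene of arterial ECs, was at 36.3 CPM (22.1 to 56.0) in type R-like cells of Control on 20 UMIs, far below the 472 CPM (438 to 507) of arterial-like and the 133 CPM (119 to 148) of type H-like cells. The genes outside the gates thus gave no single answer on the type R name, and it is used here for the gate alone.

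The first question was whether each member was restricted to ECs. In Control all 10 members were at least 1.5-fold higher in ECs than in the mesenchymal-like, chondrocyte-like and haematopoietic-like classes, against 35.0%, 39.0% and 32.0% of all genes counted. In Dach1OE the count was again 10 for each of these classes, against 50.8%, 40.2% and 32.6% of genes. Here and below, counts rest on genes with at least 50 UMIs over the 2 groups. The comparison with mural-like cells (smooth muscle cells and pericytes) set 2 members apart. There, 8 members were higher in ECs in both libraries, against 26.1% and 25.2% of genes, and 2 were lower in Control, against 21.0%. In Dach1OE no member was at least 1.5-fold lower in ECs than in mural-like cells, against 20.0% of genes.

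Cdh5 was at 1351 CPM in Control ECs (1338 to 1364) and 1578 CPM in Dach1OE ECs (1564 to 1593), while in the 4 other classes it lay between 8.55 and 29.8 CPM. Cldn5 was at 845 and 844 CPM in ECs and at 3.74 to 14.2 CPM in these classes. Plvap and Emcn showed the same restriction, with levels of 9.05 to 32.5 CPM and 4.07 to 26.5 CPM in the 4 classes. These 4 genes were thus low in each of the 4 classes, in both libraries.

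Pecam1 had a second, lower site of expression. It was at 1121 and 1459.5 CPM in ECs and at 125 (119 to 131) and 128 CPM (122 to 134) in haematopoietic-like cells, where CD31 is known on platelets and leukocytes. In mesenchymal-like, chondrocyte-like and mural-like cells it stayed at 11.7 to 43.5 CPM. At an equal depth of 1000 UMIs per cell, 65.3% of Control ECs and 14.9% of Control haematopoietic-like cells held a Pecam1 UMI, against 1.77% of chondrocyte-like cells, whose median depth was 9855 UMIs.

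Mcam and Cav1 were shared with mural-like cells. Mcam was at 184 CPM (179 to 189) in Control ECs and 328 CPM (311 to 345) in Control mural-like cells, and at 263 and 333 CPM in Dach1OE. Cav1 was at 210.3 CPM (205 to 216) in Control ECs and 729 CPM (703 to 755) in mural-like cells, and at 463 and 523 CPM in Dach1OE. Both genes were higher in mural-like cells than in ECs in both libraries, and for both the gap was narrower in Dach1OE. Esam was lower in mural-like cells than in ECs, at 274 against 1062 CPM in Control, but above its 7.97 to 23.4 CPM in the other 3 classes. Mural-like cells had median depths of 2474 and 2184.5 UMIs, near those of ECs.

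Ly6a, Ly6c1 and Cav1 were shared with fibroblast-like cells, of which there were 415 in Control and 330 in Dach1OE. Ly6a was at 1742 (1683 to 1802) and 2223 CPM (2148 to 2299.6) there, above its EC levels of 617 and 1300.3 CPM. Ly6c1 was at 736 and 1018 CPM in fibroblast-like cells and 569.6 and 866 CPM in ECs. Cav1 was at 454 and 592 CPM in fibroblast-like cells. In osteoblast-like cells Ly6a and Ly6c1 were at 5.27 to 9.07 CPM, and in marrow stromal-like cells Ly6a was at 20.5 and 35.4 CPM, while mesenchymal-like cells of no named group (904 and 826) had Ly6a at 258 (242 to 276) and 264 CPM (247 to 283). Within the mesenchymal-like class the fibroblast-like cells thus had the highest Ly6a level, followed by the unnamed cells.

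**Figure D1:**
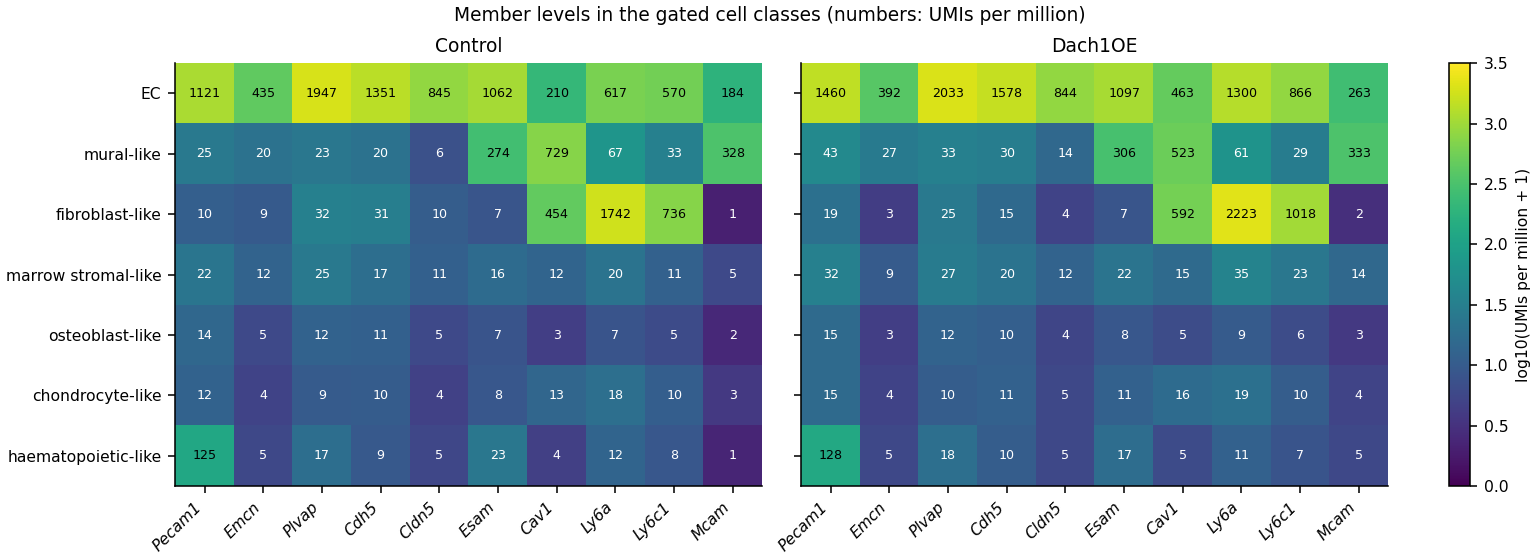
Level of each member (columns, numbers in CPM, colour on a log10 scale) in ECs and 6 other gated groups of cells (rows) for the Control library at left and the Dach1OE library at right. The EC row is high throughout, Esam, Cav1 and Mcam are also high in mural-like cells, and Cav1, Ly6a and Ly6c1 in fibroblast-like cells.

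The members were then ordered over the EC groups. In Control, type H-like cells had 6 members at least 1.5-fold higher than sinusoidal-like cells, where 11.9% of all genes were that much higher, and 0 lower, where 13.5% were. The median log2 ratio of the members was 0.76, against 0.01 for all genes. In Dach1OE the same comparison gave 4 members higher, against 9.41% of genes, and 0 lower, against 12.4%, with a median of 0.40. Cells that met no gate, set against sinusoidal-like cells of Control, also had 6 members higher and 0 lower. All genes gave 13.3% and 7.3% there, and the median of the members was 0.60. In Dach1OE these cells had 3 members higher and 0 lower, against 9.49% and 4.84% of genes.

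Pecam1 and Emcn, whose proteins define type H vessels, were both higher in type H-like than in sinusoidal-like cells. Pecam1 was at 961 CPM (948 to 975) in Control sinusoidal-like cells and 1587 CPM (1537 to 1638) in Control type H-like cells, a log2 ratio of 0.72 (0.67 to 0.77). Emcn was at 403 (394 to 412) and 695 CPM (662 to 729.6), a log2 ratio of 0.79 (0.71 to 0.87). In Dach1OE Emcn was again higher in type H-like than in sinusoidal-like cells, but by less than 1.5-fold. Emcn was highest in type H-like cells in Control, while Pecam1 was highest in type R-like cells, at 2373 CPM (2246 to 2505), and then in arterial-like cells, at 1961 CPM (1893 to 2031). In Dach1OE the Pecam1 levels of type R-like (2598 CPM, 2445 to 2757) and arterial-like cells (2541 CPM, 2494 to 2588) could not be separated by their intervals.

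In Control Emcn was lowest in lymphatic-like cells, at 71.3 CPM (36.9 to 125) on 52 cells. In the 21 lymphatic-like cells of Dach1OE Emcn was at 122 CPM (52.7 to 241), which overlapped with arterial-like cells. In arterial-like cells it was at 347 (319 to 377) and 183 CPM (171 to 196), and in proliferating cells at 312 (292 to 333) and 277 CPM (260.5 to 294). In Control the arterial-like level of Emcn was within 1.5-fold of the sinusoidal-like one, with a log2 ratio of -0.21 (-0.34 to -0.09), and it was the lowest among blood ECs in Dach1OE alone. Type R-like cells had high Pecam1 with Emcn at 495 (438 to 557) and 531 CPM (463 to 605). In Dach1OE the intervals for Emcn of type R-like and type H-like cells (552 to 603) overlapped.

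RefSeq start sites on GRCm38.p6 were at hand for 5 of the 10 members (Emcn, Cldn5, Cav1, Ly6c1 and Mcam). Those of Emcn, Cldn5, Cav1 and Ly6c1 are shown, as contrasts between EC groups or libraries below rest on them, while Plvap and Ly6a, which also carry such contrasts, are given without sequence. Each stretch is the 250 bases before the first start, 5′ to 3′: Emcn at chr3:137340828-137341077, Cldn5 at chr16:18776597-18776846 and Cav1 at chr6:17306085-17306334 on the plus strand, and Ly6c1 at chr15:75048838-75049087 on the minus strand. Capitals mark a core of ETS factors, which act in ECs (AGGAAG or its complement CTTCCT), and a GC box (GGGCGG or CCGCCC).
Emcn: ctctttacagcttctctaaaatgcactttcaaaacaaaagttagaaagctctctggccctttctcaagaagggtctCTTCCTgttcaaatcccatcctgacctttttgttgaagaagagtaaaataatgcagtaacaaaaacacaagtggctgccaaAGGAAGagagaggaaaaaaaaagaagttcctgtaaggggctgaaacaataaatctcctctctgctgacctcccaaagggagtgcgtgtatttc
Cldn5: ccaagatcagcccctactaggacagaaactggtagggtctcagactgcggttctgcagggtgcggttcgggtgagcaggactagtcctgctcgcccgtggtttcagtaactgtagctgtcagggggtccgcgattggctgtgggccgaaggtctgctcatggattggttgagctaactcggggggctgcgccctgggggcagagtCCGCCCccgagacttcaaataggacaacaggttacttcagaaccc
Cav1: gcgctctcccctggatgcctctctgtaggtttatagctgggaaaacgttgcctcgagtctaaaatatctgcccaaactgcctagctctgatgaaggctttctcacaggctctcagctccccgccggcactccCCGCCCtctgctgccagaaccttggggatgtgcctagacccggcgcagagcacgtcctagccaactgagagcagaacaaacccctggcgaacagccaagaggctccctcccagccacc
Ly6c1: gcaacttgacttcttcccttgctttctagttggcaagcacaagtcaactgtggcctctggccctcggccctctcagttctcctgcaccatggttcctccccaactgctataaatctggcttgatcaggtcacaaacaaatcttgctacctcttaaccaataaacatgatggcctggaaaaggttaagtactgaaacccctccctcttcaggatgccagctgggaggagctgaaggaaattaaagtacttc
The Emcn stretch held 2 ETS cores and no GC box, and those of Cldn5 and Cav1 each held 1 GC box and no ETS core. The Ly6c1 stretch held neither, a second Ly6c1 start held 3 ETS cores before it, of which 2 overlap, and the Mcam start held 5 GC boxes. Of 32851 start-site windows of this length, 29.5% held the ETS core and 32.7% the GC box on either strand, so such matches were common. The data hold no measurement of binding at these bases.

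Cav1 had the widest range of the members over the 5 groups of blood ECs, from sinusoidal-like to type R-like cells. In Control it was at 32.7 CPM (30.2 to 35.3) in sinusoidal-like, 312 (290.0 to 335) in type H-like, 1353 (1296 to 1412) in arterial-like and 1679 CPM (1572 to 1790.2) in type R-like cells. Of all members 5 were at least 1.5-fold higher in arterial-like than in sinusoidal-like cells of Control, against 14.9% of genes, and 0 lower, against 18.9%. In Dach1OE 6 were higher, against 13.5%, and 2 lower, against 16.8%, the latter Emcn (-1.23, -1.33 to -1.12) and Plvap (-1.51, -1.56 to -1.46). Cav1 in arterial-like cells was 5.37 higher than in sinusoidal-like cells of Control on the log2 scale (5.24 to 5.50) and in type H-like cells 3.26 higher (3.10 to 3.41). The sinusoidal-like level, though lowest, lay above the 13.5 CPM (12.4 to 14.6) of Control chondrocyte-like cells. Lymphatic-like cells, at 1747 CPM (1553 to 1959), overlapped with type R-like cells. They were left out of the order of ranges, since Ly6c1 rests there on 5 UMIs in Control and 2 in Dach1OE.

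Ly6a and Ly6c1 were lowest in sinusoidal-like and highest in arterial-like cells among the 4 main groups of Control. Ly6a was at 432 (423 to 442), 819 (783 to 857), 1367 (1271 to 1468) and 2490.2 CPM (2413 to 2569) in sinusoidal-like, type H-like, type R-like and arterial-like cells. Ly6c1 was at 274 (266 to 281), 1333 (1287 to 1381), 993 (912 to 1080.1) and 2213 CPM (2141 to 2288) in the same order. Both had their maximum in arterial-like cells, but type H-like cells stood above type R-like cells for Ly6c1 and below them for Ly6a. In lymphatic-like cells both were lower still, at 59.4 (28.5 to 109) and 29.7 CPM (9.65 to 69.3).

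In Dach1OE this spread was smaller. Ly6a was at 1166 CPM (1145 to 1187) in sinusoidal-like and 1127 CPM (1091 to 1163) in type H-like cells, with overlapping intervals. It was at 1897 (1767 to 2034) in type R-like and 1912 CPM (1871 to 1953) in arterial-like cells, again overlapping. For Ly6a, the log2 ratio of arterial-like over sinusoidal-like cells stood at 2.53 (2.47 to 2.58) for Control, against 0.71 (0.67 to 0.75) for Dach1OE. For Ly6c1 the Dach1OE levels were 514 CPM (500.0 to 528) in sinusoidal-like and 1456 CPM (1421 to 1492) in arterial-like cells, also closer than in Control.

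The junction genes varied less, with the exception of Cldn5. Esam was at 1067 to 1387 CPM in the sinusoidal-like, type H-like, arterial-like and type R-like cells of Control, and Cdh5 at 993 to 1703 CPM. Cdh5 was lowest of these in type R-like cells (993 CPM, 912 to 1080.1) and highest in type H-like cells (1703 CPM, 1651 to 1756). Proliferating cells had lower levels of both, at 702 and 905 CPM, and lymphatic-like cells lower still, at 279 and 571 CPM.

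Cldn5 was at 894 (880.5 to 907) in sinusoidal-like, 969 (930.3 to 1009.9) in type H-like and 938 CPM (891 to 987) in arterial-like cells of Control, and the last of these overlapped with both others. Type R-like cells, with 4 members higher than sinusoidal-like cells (against 14.4% of genes in Control and 13.7% in Dach1OE) and 1 lower (against 27.4% in both), had Cldn5 as that 1, at 111 CPM (84.6 to 142), a log2 ratio to sinusoidal-like cells of -3.01 (-3.40 to -2.65). Lymphatic-like cells had the highest level, at 2109.9 CPM (1896 to 2341). At 1000 UMIs per cell, 54.7% of sinusoidal-like and 3.61% of type R-like Control cells held a Cldn5 UMI. The type R-like cells of Dach1OE had 317 CPM (265 to 376), a log2 ratio to the sinusoidal-like cells of that library of -1.14 (-1.39 to -0.89).

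Plvap, the diaphragm gene, was at 1990.0 (1970.1 to 2009.9), 2224 (2164 to 2284) and 2806 CPM (2668 to 2949) in sinusoidal-like, type H-like and type R-like cells of Control and at 1524 CPM (1464 to 1586) in arterial-like cells. Of these 4 groups the arterial-like one was lowest, and proliferating cells were lower still, at 1241 CPM (1201 to 1282). Mcam was highest in type H-like cells, at 389 (365 to 415), followed by arterial-like cells at 299 (273 to 327), sinusoidal-like cells at 145 (139.6 to 150.4) and type R-like cells at 105 CPM (79.8 to 136).

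**Figure D2:**
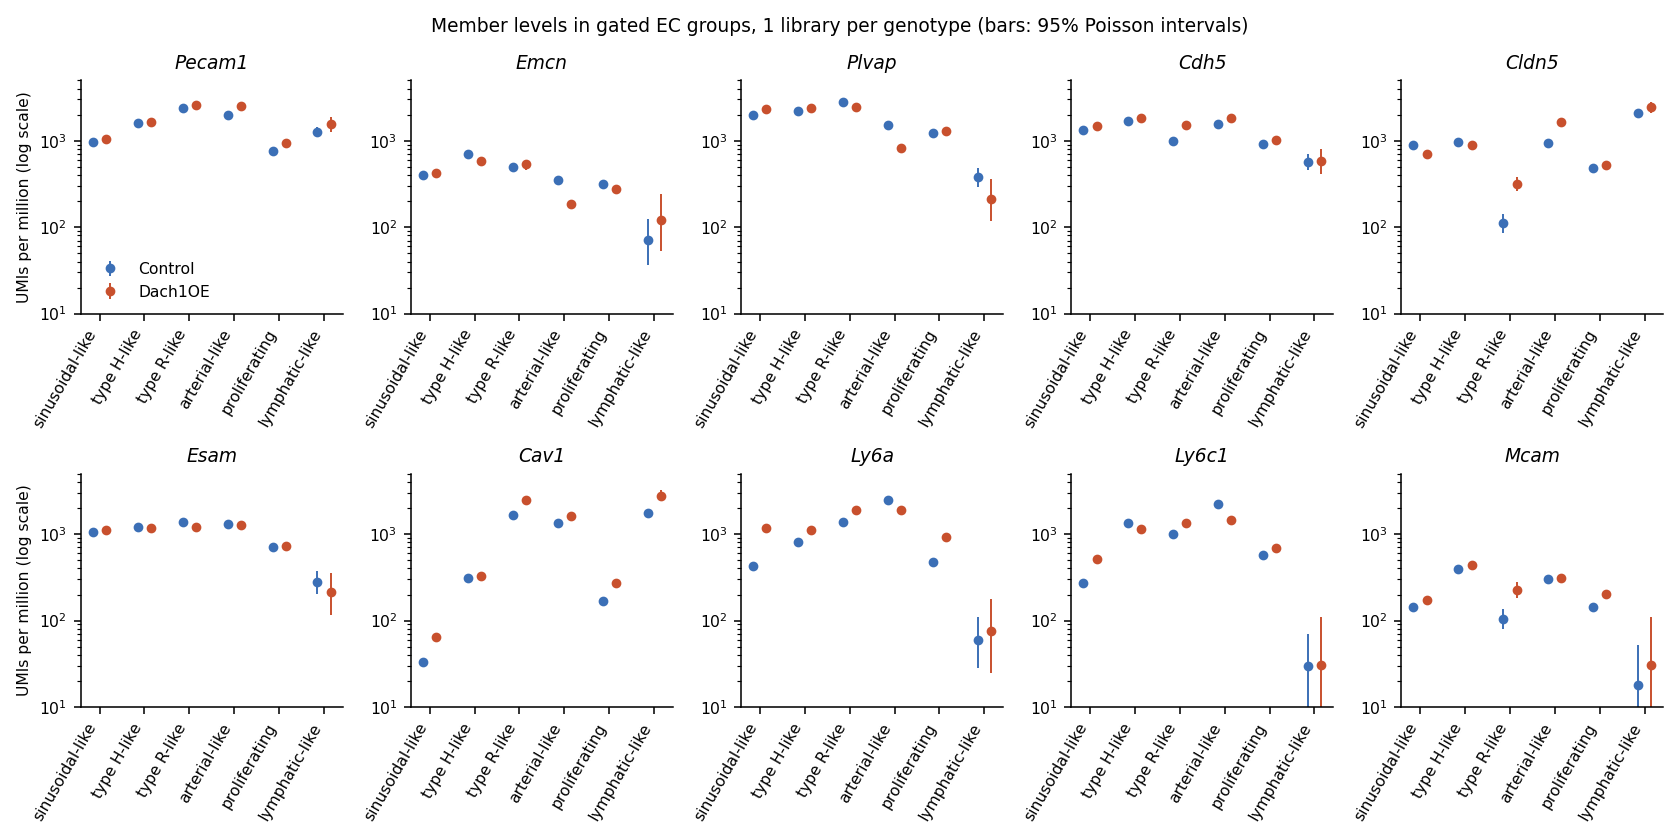
Level of each member in CPM on a log axis in 6 gated EC groups, for the Control (blue) and Dach1OE (red) libraries, with 95% Poisson intervals. Cav1 spans the widest range over the groups other than lymphatic-like cells, Cldn5 is low in type R-like cells, Emcn and Plvap of arterial-like cells are lower in Dach1OE, and Ly6a and Ly6c1 of sinusoidal-like cells are higher in Dach1OE.

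Over the 12 combinations of EC group and library with at least 100 cells, members paired in different ways on the log2 scale. Pearson's r was 0.89 between Emcn and Plvap, 0.87 between Pecam1 and Cav1, 0.86 between Cav1 and Ly6c1, and -0.45 between Plvap and Cldn5. These points share libraries and gates, and the values are descriptions. Among 11206 other genes, those most like Cav1 were S100a6 (r = 0.99) and Pkn3 (0.98). Those most like Emcn were Adgrl2 (0.95) and Mxra8 (0.93), and those most like Mcam were Bcl6b (0.97) and Prag1 (0.96). For Pecam1 they were Itpkb (0.97) and Ano6 (0.97), for Plvap Ptprk (0.95) and Rasal2 (0.95), and for Cdh5 Ktn1 (0.97) and Jkamp (0.96). Cldn5 was most like 9530068E07Rik (0.96) and Cry1 (0.96), Esam like Hsd17b11 (0.98) and Trove2 (0.96), Ly6a like C130074G19Rik (0.95) and Fzd6 (0.94), and Ly6c1 like Gm39822 (0.97) and Spata13 (0.96).

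The libraries were compared next, to describe the members after Dach1 overexpression. Over all ECs, 3 of the 10 members (Cav1, Ly6a and Ly6c1) were at least 1.5-fold higher in Dach1OE, where 7.23% of all 13757 genes counted were, and 0 were lower, where 6.56% were. The median log2 ratio of the members was 0.30, against 0.04 for all genes. Cav1 was at 210.3 CPM in Control ECs and 463 CPM in Dach1OE ECs, 2.20-fold, a log2 ratio of 1.14 (1.09 to 1.18). Ly6a was at 617 and 1300.3 CPM, 2.11-fold, a log2 ratio of 1.08 (1.05 to 1.10). Ly6c1 lay at the edge of the limit, with 569.6 and 866 CPM, 1.52-fold, a log2 ratio of 0.60 (0.58 to 0.63).

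The other 7 members differed by less than 1.5-fold. Mcam was at 184 and 263 CPM, a log2 ratio of 0.52 (0.47 to 0.57), and Pecam1 at 1121 and 1459.5 CPM, 0.38 (0.36 to 0.40). Cdh5 had a log2 ratio of 0.22 (0.21 to 0.24), and Plvap and Esam had 0.06 (0.05 to 0.08) and 0.05 (0.02 to 0.07). Cldn5 as measured was at 845 and 844 CPM (log2 interval -0.03 to 0.02), while its ratios within EC groups, given below, had both directions. Emcn, at 435 (427 to 442) and 392 CPM (384 to 399), was the only member whose whole interval lay below 0, with -0.15 (-0.19 to -0.11).

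These ratios moved with the mix of EC groups. When the share of EC UMIs that each group had in Control was applied to both libraries, a setting chosen after the data were seen, Cav1 stood at a log2 ratio of 0.39, Ly6c1 at 0.27 and Pecam1 at 0.15, and Ly6a remained at 0.97. Only Ly6a was then past 1.5-fold higher, against 4.63% of genes, and Cldn5 was at -0.17. With equal weight for the 5 named blood EC groups 0 members were, against 6.53% of genes. Ly6c1 was then at -0.06, Plvap at -0.06, Esam at -0.04, Cldn5 at 0.26, Cav1 at 0.43 and Ly6a at 0.33. In both settings the median stayed above 0, at 0.16 and 0.22. Arterial-like cells held 5.30% of EC UMIs in Control and 15.0% in Dach1OE, and sinusoidal-like cells 64.6% and 34.1%.

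**Figure D3:**
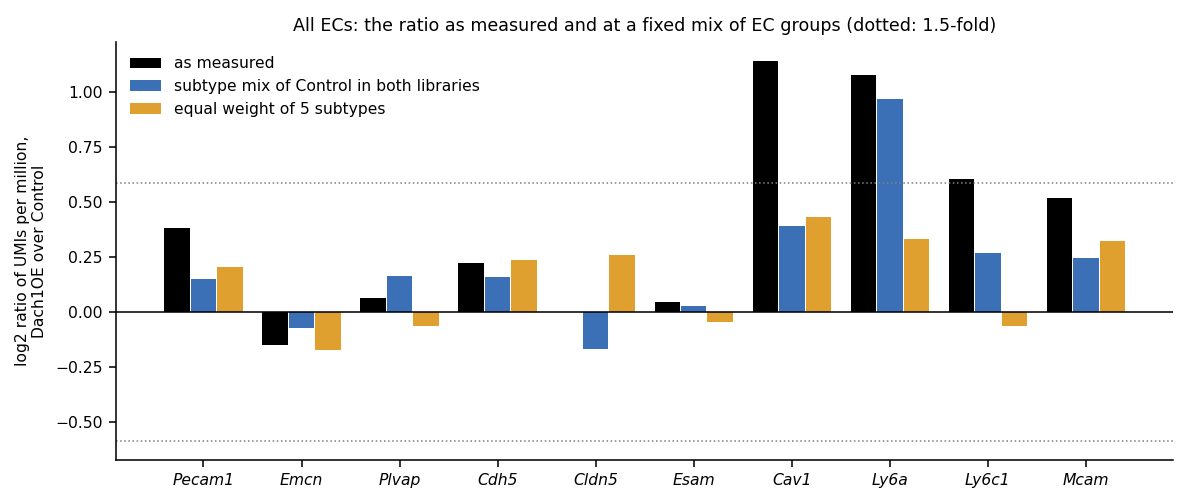
Log2 ratio of CPM, Dach1OE over Control, in all ECs for each member as measured (black), at the subtype mix of Control in both libraries (blue) and with equal weight of 5 EC groups (yellow), with dotted lines at 1.5-fold. The Cav1 bar falls from 1.14 to 0.39 and 0.43, and the Ly6a bar from 1.08 to 0.97 and 0.33.

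Within sinusoidal-like cells the same 3 members were at least 1.5-fold higher in Dach1OE, against 4.83% of genes, and 0 were lower, against 4.50%. Ly6a was at 432 and 1166 CPM, a log2 ratio of 1.43 (1.39 to 1.47), and Ly6c1 at 274 and 514 CPM, 0.91 (0.85 to 0.96). Cav1 was at 32.7 and 64.3 CPM, 0.98 (0.82 to 1.14), low levels in both libraries. Cldn5 was lower, at 894 and 696 CPM, -0.36 (-0.40 to -0.32), and Plvap higher, at 1990.0 and 2351 CPM, 0.24 (0.22 to 0.26), both within 1.5-fold. Emcn differed little, at 403 and 428 CPM, 0.09 (0.03 to 0.14). The sinusoidal-like gate held 61.7% of Control but 31.5% of Dach1OE ECs. The makeup of cells within it was not matched between libraries, and its part in these ratios was not tested.

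At 1000 UMIs per cell, 28.7% of Control and 55.3% of Dach1OE sinusoidal-like cells held a Ly6a UMI, against 1.73% and 2.05% of chondrocyte-like cells, which had median depths of 9855 and 9406 UMIs. For Ly6c1 the shares were 17.6% and 30.3%. Among sinusoidal-like cells with at least 2000 UMIs, thinned to that depth, both genes together were found in 17.3% of Control (16.2 to 18.5) and 39.0% of Dach1OE cells (37.0 to 41.1). At equal depth the share of cells with a detected molecule depends on the level, so these shares are no separate result.

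In type H-like cells no member was past 1.5-fold in either direction, against 5.66% of genes higher and 5.09% lower. Pecam1 was at 1587 and 1657 CPM, a log2 ratio of 0.06 (0.00 to 0.12), and Emcn at 695 and 577 CPM, -0.27 (-0.36 to -0.17). Of the 2 proteins that define type H, the Pecam1 transcript thus differed little and Emcn was 1.20-fold lower. Ly6a had the largest ratio, 0.46 (0.38 to 0.54), and Ly6c1 was at -0.24 (-0.31 to -0.17). Among type H-like cells with at least 2000 UMIs, thinned to that depth, 67.5% of Control (63.5 to 71.4) and 59.5% of Dach1OE cells (55.9 to 63.0) had a UMI of both Pecam1 and Emcn.

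Arterial-like cells gave another picture, with 1 member at least 1.5-fold higher, against 9.04% of genes, and 3 lower, against 8.15%. Emcn was at 347 and 183 CPM, a log2 ratio of -0.92 (-1.08 to -0.76), and Plvap at 1524 and 826 CPM, -0.88 (-0.96 to -0.81). The claudin Cldn5 was at 938 and 1626 CPM, 0.79 (0.71 to 0.87). Arterial-like cells of Dach1OE were thus lower in the capillary gene Emcn and the diaphragm gene Plvap and higher in Cldn5. The count of 1 member higher was near the share of all genes.

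Ly6c1 in arterial-like cells was at 2213 and 1456 CPM, -0.60 (-0.66 to -0.54), and Ly6a at 2490.2 and 1912 CPM, -0.38 (-0.44 to -0.33). Both had the opposite direction in sinusoidal-like cells. Pecam1 was at 1961 and 2541 CPM, 0.37 (0.32 to 0.43), and Esam did not differ beyond counting error (-0.01, -0.09 to 0.06). The arterial-like gate also held other genes at other levels in Dach1OE, and arterial genes among them went in both directions. Hey1, a target of Notch signalling, was at 138.5 and 347 CPM and Sox17 at 433 and 633 CPM. Efnb2 was lower in Dach1OE, at 472 (438 to 507) and 327 CPM (310 to 344). The makeup of cells within the gate was not matched between libraries. Its part in these ratios was not tested.

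**Figure D4:**
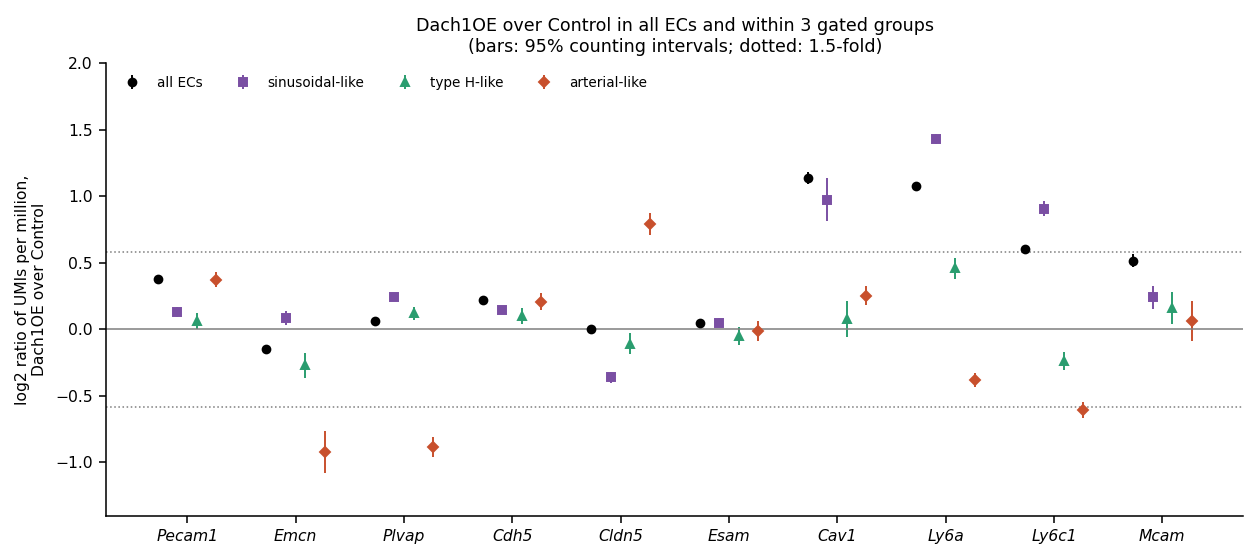
Log2 ratio of CPM, Dach1OE over Control, for each member in all ECs (circles), sinusoidal-like (squares), type H-like (triangles) and arterial-like cells (diamonds), with 95% counting intervals and dotted lines at 1.5-fold. Ly6a and Ly6c1 lie above the upper line in sinusoidal-like cells and below 0 in arterial-like cells, and Emcn and Plvap lie below the lower line in arterial-like cells only.

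Arterial character was also followed without the cut of the gate, by how many of the same 8 arterial markers had a UMI per EC. The bins were not matched in makeup. The median number of sinusoidal markers was 5 in Control and 3 in Dach1OE at 0 arterial markers, and 5 and 2 at 1. At 2 it was 2 and 1, at 3 it was 1 in both, and at 4 or more 1 and 0. From 0 to 4 or more markers, Emcn went from 421 to 267 CPM in Control and from 428 to 143 CPM in Dach1OE. Plvap went from 1940.2 to 1058 CPM and from 2283 to 604 CPM, while Cav1 went from 69.9 to 1410.4 CPM and from 142 to 1650.1 CPM. The cells with 4 or more markers numbered 353 in Control and 1055 in Dach1OE. In cells with 1, 2 and 3 markers Emcn was at 459, 523 and 460.0 CPM in Control and at 444, 438 and 363 CPM in Dach1OE. In Control its level was thus below that of cells without a marker only at 4 or more markers, and in Dach1OE from 3 markers on. Plvap at 3 markers was at 2171 and 1906 CPM, closer between the libraries than at 4 or more.

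ECs with at least 2000 UMIs, 6248 in Control and 6310 in Dach1OE, were thinned to that depth. Those with a Cav1 UMI and no Emcn UMI made up 7.47% of Control (6.83 to 8.15) and 19.9% of Dach1OE cells (18.9 to 20.9). The reverse state, Emcn without Cav1, made up 44.0% (42.8 to 45.3) and 34.3% (33.2 to 35.5). Among arterial-like cells the first state covered 46.8% of Control cells (41.4 to 52.2) and 69.5% of Dach1OE cells (66.4 to 72.4). Within sinusoidal-like cells it was rare in both, at 2.02% and 4.28%. At 1000 UMIs, where 8684 Control and 8711 Dach1OE ECs were kept, Cav1 without Emcn made up 8.69% and 18.0% of ECs. A cell without a UMI of a gene may still express it, and the states moved with depth. Both genes together were found in 31.4% of Control type R-like cells at 1000 UMIs and in 61.0% at 2000.

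**Figure D5:**
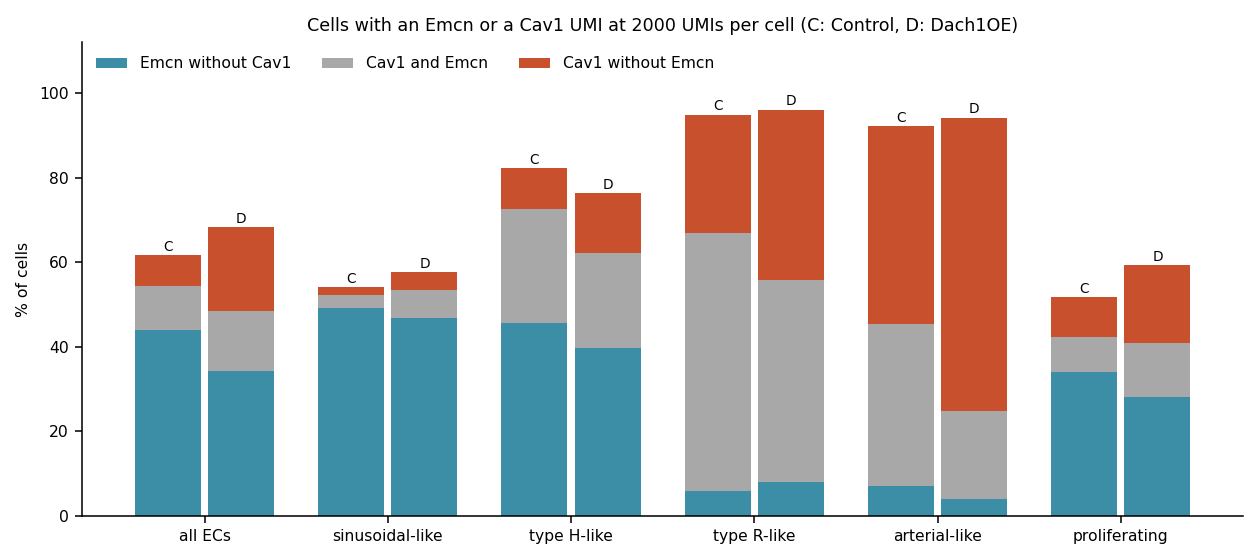
Share of cells with an Emcn UMI and no Cav1 UMI (blue), both (grey) or Cav1 without Emcn (red) at 2000 UMIs per cell, in all ECs and 5 gated groups of Control (C) and Dach1OE (D). A cell without a UMI of a gene may still express it. Cells with fewer than 2000 UMIs are left out. Of the rest, cells with Cav1 alone are 7.47% of Control and 19.9% of Dach1OE ECs, and most of the arterial-like cells of Dach1OE (69.5%).

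Type R-like cells, of which there were 197 in Control and 148 in Dach1OE, had 3 members at least 1.5-fold higher in Dach1OE, against 8.08% of genes, and 0 lower, against 10.6%. Cldn5 had a log2 ratio of 1.52 (1.07 to 1.98) from the low levels given above, Mcam of 1.12 (0.63 to 1.61) and Cdh5 of 0.60 (0.43 to 0.77). Cav1 was just inside the limit, at 1679 and 2509 CPM, 0.58 (0.45 to 0.71). The Cldn5 ratio rests on 61 Control and 132 Dach1OE UMIs. These type R-like values moved with the settings: Cldn5 was at 2.73 with cells thinned to 1000 UMIs, Mcam was at 0.40 with 1 marker more in the gate, and Cdh5 at 0.40 in cells with Xist. Cav1 stayed inside the limit in 2 of 7 alternatives, so the count of 3 is not firm. Genes outside the gate also stood at other levels in the type R-like cells of Dach1OE, among them Cxcl12, a chemokine gene of arterial ECs and marrow stroma, at 361 (312 to 414) and 1224 CPM (1120.4 to 1335), Sox17 at 59.8 (41.2 to 84.0) and 122 CPM (91.2 to 161), and Gpr182 at 149 (118 to 184.5) and 64.8 CPM (42.7 to 94.3). Here too the makeup of cells within the gate was not matched, and its part in these ratios was not tested. Proliferating cells had 2 members higher, Ly6a (0.95, 0.86 to 1.04) and Cav1 (0.69, 0.53 to 0.84), against 4.23% of genes, and 0 lower, against 5.16%. Cav1 of proliferating cells was past 1.5-fold in 5 of 7 alternatives, with 0.37 in cells with a Y-linked UMI as the lowest. Cells that met no gate, 35.9% of Dach1OE ECs, had 1 member higher, against 6.77% of genes, and 0 lower, against 6.84%. The median log2 ratio of the members there was 0.02, against 0.03 for all genes.

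Each library held cells of a female and of a male mouse, which were compared separately. A difference between these cells can be one of mouse or of sex. In ECs with Xist and no Y-linked UMI (2816 Control, 2786 Dach1OE) 2 members were at least 1.5-fold higher, against 6.47% of genes, and 0 lower, against 5.30%. In ECs with a Y-linked UMI and no Xist (2140 and 2080) 3 were higher, against 9.70%, and 0 lower, against 6.39%. Ly6a of sinusoidal-like cells had log2 ratios of 1.29 (1.22 to 1.36) and 1.61 (1.54 to 1.68), and Ly6c1 of 0.67 (0.58 to 0.77) and 1.02 (0.92 to 1.12). In arterial-like cells Emcn had -1.20 (-1.48 to -0.93) and -0.81 (-1.15 to -0.46), and Plvap -1.17 (-1.30 to -1.04) and -0.65 (-0.80 to -0.49). For Cldn5 of these cells the ratios were 0.99 (0.85 to 1.12) and 0.58 (0.40 to 0.76), the latter just inside 1.5-fold, so that 0 members were higher in arterial-like cells with a Y-linked UMI, against 13.3% of genes. For Ly6c1 of these cells they were -0.42 (-0.52 to -0.32), inside 1.5-fold, and -0.90 (-1.03 to -0.77). Each of these ratios kept its direction in both sets of cells, while Cldn5 and Ly6c1 of arterial-like cells were each past 1.5-fold in 1 of them. In type H-like cells Ly6a was at 0.19 (0.06 to 0.32) in those with Xist and at 0.62 (0.46 to 0.79) in those with a Y-linked UMI, where it was the 1 member past 1.5-fold higher, against 7.80% of genes.

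Within the Dach1OE library, cells with and without a Dach1 UMI were set side by side. In sinusoidal-like cells Ly6a was at 1521 CPM (1484 to 1560) in 979 Dach1-positive cells and 926 CPM (902 to 951) in 1859 Dach1-negative cells, a log2 ratio of 0.72 (0.66 to 0.77), while Emcn was at 379 and 460.5 CPM, -0.28 (-0.37 to -0.19). In arterial-like cells Ly6a had the other direction, at 1854 CPM (1798 to 1910) in 553 Dach1-positive and 1975 CPM (1916 to 2036) in 680 Dach1-negative cells. Positive cells were deeper, with medians of 3752 against 2731 UMIs in sinusoidal-like and 3713 against 2720.5 UMIs in arterial-like cells. A cell without a Dach1 UMI may still express the gene. Dach1-negative sinusoidal-like cells remained above Control for Ly6a, by 1.10 (1.05 to 1.15). Scgb3a1, a secretoglobin gene, was at 17.8 CPM in Control and 696 CPM in Dach1OE sinusoidal-like cells. Those of Dach1OE with a Scgb3a1 UMI had 1478 CPM of Ly6a and those without had 786 CPM, a log2 ratio of 0.91 (0.85 to 0.97), with median depths of 3485.5 and 2717 UMIs.

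The members' neighbourhood was described with 36 other junction, caveola and surface genes, a list also chosen with earlier results of these data known. Over all ECs, 33 had at least 50 UMIs, of which 10 were at least 1.5-fold higher in Dach1OE and 1 lower, against 7.23% and 6.56% of all genes, with a median log2 ratio of 0.24. Of 9 adherens junction genes 0 were past 1.5-fold in either direction (median 0.07), among them Ctnnb1 (beta-catenin), at 1369 and 1439 CPM, and Heg1 just inside the limit (0.58, 0.53 to 0.64). Of 8 tight junction genes counted 2 were higher, Jam3 (0.61, 0.42 to 0.80) and Lsr, the angulin of tricellular junctions, with 29 UMIs in Control and 401 in Dach1OE (3.80, 3.26 to 4.40).

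Of 5 caveola genes counted, Cavin1, which builds caveolae with Cav1, was higher, at 271 and 413 CPM (0.61, 0.57 to 0.65), and Cavin2 lower, at 691.5 and 404 CPM (-0.78, -0.81 to -0.74). Within sinusoidal-like cells 0 of the 5 were past 1.5-fold in either direction (median 0.12), with Cavin1 at 0.14 (0.06 to 0.22) and Cavin2 at -0.54 (-0.59 to -0.50). Of 8 surface protein genes 5 were higher: Vwf, the von Willebrand factor gene, with 43.2 and 249 CPM (2.53, 2.44 to 2.62), Podxl (1.30, 1.25 to 1.36), Bcam (1.10, 1.02 to 1.18), Icam2 (0.89, 0.84 to 0.94) and the progenitor and capillary antigen gene Cd34 (0.68, 0.65 to 0.72). Of the Ly6 family outside the members, Ly6c2 (1.14, 0.74 to 1.55) and Gpihbp1, which carries lipoprotein lipase across capillaries, were higher (0.61, 0.58 to 0.64), and Ly6e was not, at 2475 and 2661 CPM (0.10, 0.09 to 0.12).

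In sinusoidal-like cells alone 6 of 32 list genes were higher and 0 lower, against the 4.83% and 4.50% of all genes given above. In Control, arterial-like over sinusoidal-like cells gave 18 of 31 higher, against the 14.9% and 18.9% of genes given above for higher and lower, and 3 lower, with Cdh13 at 5.38, Vwf at 4.45 and Podxl at 3.87 on the log2 scale.

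Ly6c1 and Ly6c2 are near-identical copies, and how reads were divided between them is uncertain. Of 1764 different stretches of 75 bases in the annotated Ly6c1 transcripts, 14.7% also occurred in Ly6c2 and 4.37% in Ly6a. Ly6c2 had 76 and 166 UMIs in ECs, against 17082 and 25691 of Ly6c1, and its level was higher in haematopoietic-like cells (13.2 and 16.5 CPM) than in ECs (2.53 and 5.59 CPM). Exons of Plvap, Cdh5, Cav1 and Mcam overlap an annotated gene on the other strand (Gtpbp3, Gm29682, Gm15581 and Gm10687), and strand use in the counting is not given in the sources used here.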

How the data were processed

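Single-cell RNA was measured in 2 libraries, Control and Dach1OE. The authors aligned reads with the BD Rhapsody pipeline (1.11 per the file headers) and deposited counts of molecules per cell and gene, corrected for sequencing errors in the molecular identifiers (GRCm38, GENCODE M19). The members and lists were chosen with earlier results of these data known, and gate limits were set after marker distributions were seen.

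Cells with 500 to 6000 genes and under 25% mitochondrial UMIs were kept. Cells were gated by markers, UMIs were summed per group and library, and levels are UMIs per 1000000 UMIs of the group (CPM) with exact Poisson intervals. Ratios have exact conditional binomial intervals and shares Clopper-Pearson intervals, all at 95%, covering counting error only. With 1 library per genotype no test was run, and a gene was counted as higher or lower past 1.5-fold with at least 50 UMIs. Shares were compared after thinning cells to 1000 or 2000 UMIs, and cells with fewer UMIs were left out. Of 8913 Control and 9020 Dach1OE ECs, 8684 and 8711 were kept at 1000 UMIs and 6248 and 6310 at 2000. Sinusoidal-like cells carried at least 4 of 8 markers, arterial-like, type H-like and proliferating cells at least 3 of 8, and type R-like cells at least 2 of 6. Type H-like cells also carried at most 3 sinusoidal markers, and arterial-like cells at least as many arterial as sinusoidal markers. Type R-like cells had no limit on sinusoidal markers. A cell that met several gates was named by the first of lymphatic-like, proliferating, arterial-like, type R-like, type H-like and sinusoidal-like.

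Named genes were the 10 members, list genes past 1.5-fold (up to 10 by size) and the 2 genes most like each member. Outside that rule, Heg1, Ctnnb1 and Ly6e were named after their values were seen, as were Dach1, Scgb3a1 and the genes set against the gates (Gpr182, Sox17, Aplnr, Flt4, Efnb2, Hey1 and Cxcl12). Alternatives changed the gates, filters, raw against corrected molecules, scaling (edgeR 4.0.16 TMM, DESeq2 1.42.0 size factors), depth, cells by sex and the mix of EC groups. Computation used Python 3.11.15, numpy 2.4.6, scipy 1.17.1 and R 4.3.3, and was tested on simulated data. Depth was 143986818 and 166999989 UMIs.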

Additional observations from a re-analysis of the deposited data

Results flagged for a closer look

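Ly6c1 stood out because its Dach1OE over Control ratio was past 1.5-fold in opposite directions in sinusoidal-like and arterial-like cells. The log2 ratio was 0.91 in sinusoidal-like cells (274 and 514 CPM) and -0.60 in arterial-like cells (2213 and 1456 CPM), a difference of 1.51. In cells with Xist the ratios were 0.67 and -0.42, and in cells with a Y-linked UMI 1.02 and -0.90. Ly6a, Cldn5, Emcn and Plvap also had opposite directions in these groups beyond counting error, but were not past 1.5-fold in both. For Ly6a the log2 ratios, 1.43 in sinusoidal-like and -0.38 in arterial-like cells, lay further apart than for Ly6c1, by 1.81. With 1 library per genotype these differences were not tested.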

How the results depend on the processing

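No paired analysis was possible because there was 1 library per group, and no library could be left out. The count of members past 1.5-fold higher over all ECs (3) was 0 with equal weight for the 5 named EC groups and 1 at the subtype mix of Control, an alternative chosen after seeing the data. At that mix the median log2 ratio of the members was 0.16, against 0.30. Equal weight turned the log2 ratio of Ly6c1 to -0.065, of Plvap to -0.06 and of Esam to -0.04, and put Cldn5 at 0.26. Ly6c1 was past 1.5-fold in 6 of 13 alternatives, whose highest value was 0.84. The other alternatives gave 2 or 3 members higher and 0 lower. Natural log values gave a median difference of 0.18 and no counts. TMM and DESeq2 scaling moved all ratios by -0.03 and -0.04. Without a minimum of UMIs, 17.2% of all genes were past 1.5-fold higher and 21.2% lower, and 2 list genes were lower, against 1. Small groups limit precision: lymphatic-like cells numbered 52 and 21, and type R-like cells 197 and 148.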
